A study of Mus musculus with 3 samples.

Results

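The genes described here are those that carry a cell through G1 and into S phase: the D-type cyclins Ccnd1, Ccnd2 and Ccnd3, the E-type cyclins Ccne1 and Ccne2, the kinases Cdk4 and Cdk6 that D cyclins switch on, the inhibitor Cdkn1b, and the transcription factors E2f1 and E2f2. They were taken by gene symbol from the array annotation, and the set was chosen with earlier results of these data known. Of the 10 genes, 9 had a probe set naming no other gene, out of 18820 such genes on the array, and all 9 passed a filter on low values that kept 9410 genes. Ccne2 shares its probe set with its neighbour Ints8, and that probe set is given under its own number.

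The cells were RAW264.7, a mouse macrophage line transformed by a leukaemia virus, which divides in culture and so is a model of a cycling macrophage rather than of a resting tissue macrophage. Cultures grown in serum received 500 µM palmitate (a saturated fatty acid), elaidate (a trans monounsaturated one) or oleate (its cis isomer) for 6 hours, each bound to albumin at 2 fatty acid molecules per albumin. Each fatty acid has 1 array, 3 in all, and no array of cells without added fatty acid was analysed here. Every difference is therefore between a pair of arrays, with no replicate check, no error, no interval and no p-value, and "higher" and "lower" describe those arrays alone.

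As background, mitogens such as the macrophage growth factor CSF1 induce D cyclins, which bind CDK4 or CDK6 and begin to phosphorylate the retinoblastoma protein. Phosphorylated retinoblastoma protein lets go of E2F factors, which then drive transcription of E-type cyclins, of further E2F genes and of the DNA replication machinery. Cyclin E with CDK2 completes the phosphorylation, and p27, the product of Cdkn1b, holds that complex back. D cyclin transcripts and proteins are short-lived, whereas CDK4 and CDK6 are usually present in excess of their cyclins.

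As a check of the macrophage label, 9 of 10 macrophage marker genes passed the filter, and the tissue macrophage receptor gene Mrc1 did not. Spi1, the gene of the myeloid factor PU.1, had log2 values of 11.18 with palmitate, 11.23 with elaidate and 11.28 with oleate. Of the markers of other cells, 0 of 5 lymphocyte, 1 of 4 fibroblast, 1 of 4 adipocyte or hepatocyte and 2 of 4 dendritic cell genes passed, and the difference furthest from 0 among those that passed was -0.16, for Alb on palmitate against both other arrays. On the palmitate array 7 of those 9 macrophage genes were lower than on the oleate array and 2 were equal. Their median log2 difference was -0.32. Over all genes past the filter, 36.8% were lower and 32.3% equal in that comparison. The part of the lower macrophage values in the results below was not tested. Median values over the 35556 probe sets were 3.61 on palmitate, 3.58 on elaidate and 3.57 on oleate.

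On the palmitate array, transcripts of cyclins D1, D3 and E1 were 2.94-fold to 3.69-fold lower than on the oleate array, those of E2f1 and E2f2 were lower by a smaller amount, and those of the kinases Cdk4 and Cdk6 differed little. Cyclin D2 and the inhibitor gene Cdkn1b had equal values on all 3 arrays. At least 2-fold lower on palmitate than on oleate were 3 of 9 genes, beside 1.22% of all genes past the filter, and 0 of 9 were at least 2-fold higher, beside 1.65%. Because the set was chosen with earlier results of these data known, these counts are a description and not an independent test. In RNA from whole cultures, fewer cells passing through G1 and less transcript per cell cannot be told apart.

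**Figure D1:**
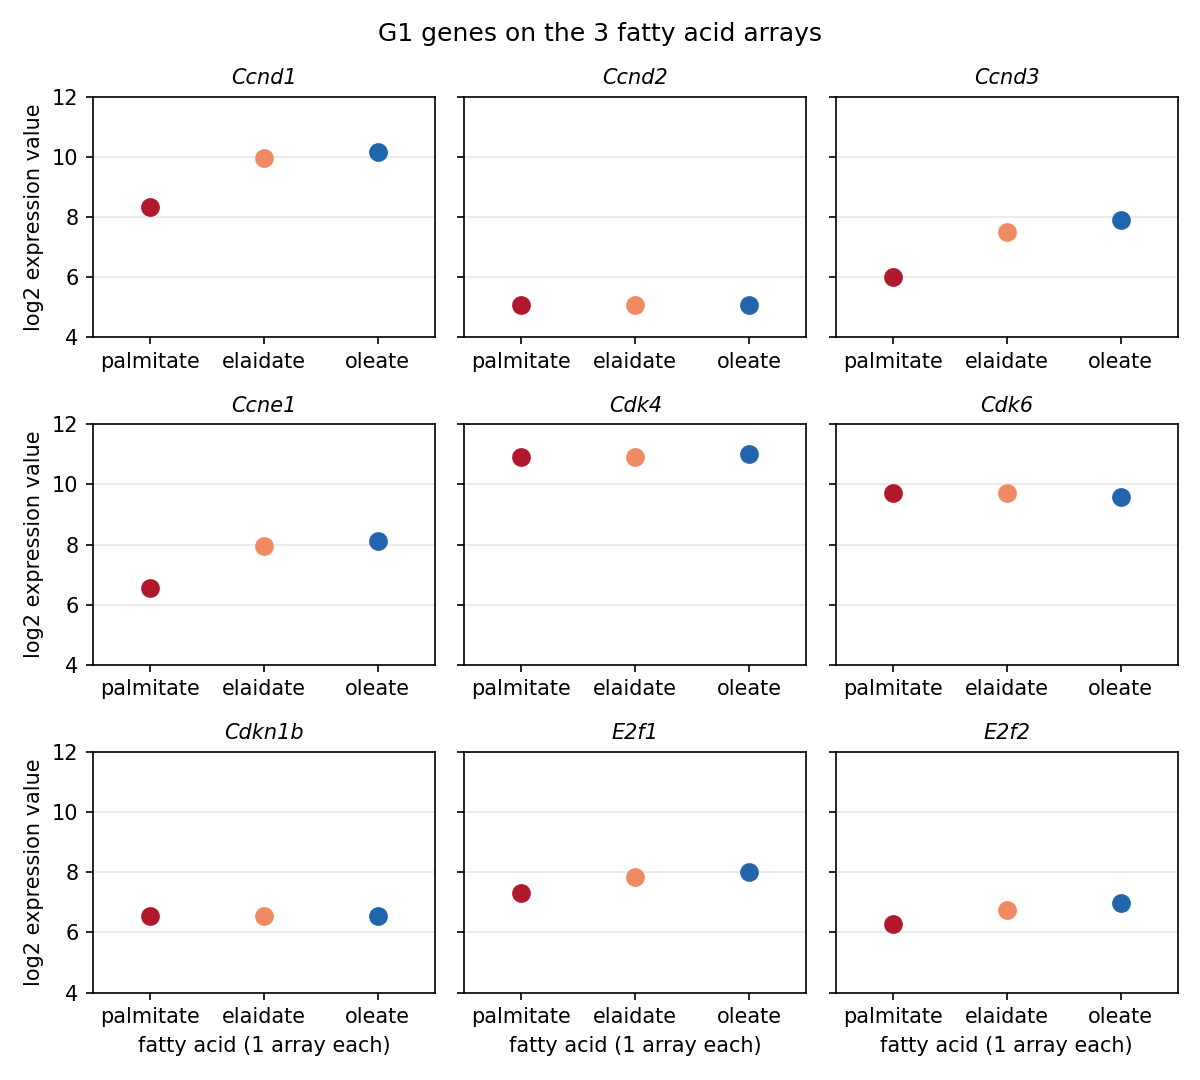
Log2 expression values (vertical axis) of the 9 G1 genes with their own probe set on the palmitate, elaidate and oleate arrays, 1 point per array; heights are not comparable between genes, because each has other probes. Ccnd1, Ccnd3 and Ccne1 are lowest on the palmitate array, at 8.33, 6.00 and 6.55, and Ccnd2 and Cdkn1b are level.

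Among the D cyclins, Ccnd1 stood at a log2 value of 8.33 with palmitate, 9.97 with elaidate and 10.16 with oleate. The palmitate array is the low one, and the other two lie close together. Cyclin D1 was thus 3.56-fold lower on palmitate than on oleate (log2 difference -1.83), and it ranked 14 from the lowest among the 9410 genes.

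Ccnd3, a D cyclin with a prominent part in blood cell development, had log2 values of 6.00 with palmitate, 7.49 with elaidate and 7.89 with oleate. It was 3.69-fold lower on palmitate than on oleate (-1.88), at rank 13 from the lowest, next to Ccnd1. Between the isomers its log2 difference was -0.39 for elaidate minus oleate, the lowest of the 9 genes, at rank 34 from the lowest in that comparison.

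Ccnd2, the remaining D cyclin, was listed at the same log2 value of 5.06 on all 3 arrays. Such equal values, to within 1e-06, held for 27.5% of all genes past the filter and for 44.8% of all probe sets. RMA alone does not usually give such ties, and no source used here says whether the authors applied a further step, so counts of equal genes, medians of 0 and small differences carry that doubt. Equal values show no measured difference, and they do not show that the RNA was equally abundant.

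A second probe set that the annotation assigns to both LTO1 and Ccnd1 was listed at 6.02 on all 3 arrays. It thus does not show the difference seen on the probe set of Ccnd1 alone, and which transcript its signal came from was not tested. Averaging both probe sets was an alternative added after seeing the data. It would put Ccnd1 at -0.92 relative to oleate and -0.82 relative to elaidate on the palmitate array. Both differences are under the 2-fold limit of 1 on the log2 scale.

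Of the E cyclins, which act with CDK2 at the entry into S phase, Ccne1 had log2 values of 6.55 with palmitate, 7.96 with elaidate and 8.11 with oleate. It was 2.94-fold lower on palmitate than on oleate (-1.56), at rank 25 from the lowest. Elaidate and oleate differed by only -0.15.

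Probe set 10503264, annotated to both Ints8, a subunit of the Integrator complex, and Ccne2, stood at 4.74 with palmitate, 6.43 with elaidate and 6.40 with oleate. Its difference for palmitate minus oleate was -1.65, similar in size to that of Ccne1, while elaidate minus oleate was 0.03. Which of both transcripts its signal came from was not tested, so it enters no count of the G1 genes.

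The kinase partners of the D cyclins showed no such difference. Cdk4 had log2 values of 10.90 with palmitate, 10.91 with elaidate and 10.99 with oleate. Cdk6 had 9.73 on both the palmitate and the elaidate array and 9.57 on the oleate array, and so was the single G1 gene of the 9 with a higher value on palmitate than on oleate, by 0.16. The inhibitor gene Cdkn1b has 2 probe sets, which were level at 7.45 and 5.64 on all 3 arrays. That protein is controlled largely by translation and degradation, which an RNA array does not see.

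The E2F factors E2f1 and E2f2, both activators of S phase genes, gave nearly the same difference. E2f1 stood at 7.31 with palmitate, 7.85 with elaidate and 8.01 with oleate. E2f2 stood at 6.29 with palmitate, 6.75 with elaidate and 6.99 with oleate. Both were 1.62-fold lower on palmitate than on oleate (-0.69 each), at ranks 301 and 302 from the lowest. With them, 5 of 9 genes were at least 1.5-fold lower on palmitate than on oleate, beside 4.73% of all genes past the filter.

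Promoter sequences are shown for 2 genes that were lower on palmitate, Ccnd3 and Ccne1, and for Cdk4, whose level differed little, so that the control regions of a cyclin and its kinase partner can be seen side by side. RefSeq's promoter table (GRCm38.p6) held 7 of the 10 genes in 9 windows, and the 250 bases before each gene start are used. The Ccnd3 window is chr17:47504801-47505050 on the plus strand, the first of its 2 starts. The Ccne1 window is chr7:38107491-38107740 on the minus strand, and the Cdk4 window is chr10:127063285-127063534 on the plus strand. Capitals mark GC boxes, GGGCGG or its other strand CCGCCC, in Ccnd3 and Ccne1, and the MYC-type E-box CACGTG in Cdk4.
Ccnd3: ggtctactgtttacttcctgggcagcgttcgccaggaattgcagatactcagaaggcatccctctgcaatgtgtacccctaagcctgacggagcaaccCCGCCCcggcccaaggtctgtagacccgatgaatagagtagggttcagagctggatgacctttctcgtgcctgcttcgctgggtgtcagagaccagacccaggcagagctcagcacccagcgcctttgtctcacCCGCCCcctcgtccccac
Ccne1: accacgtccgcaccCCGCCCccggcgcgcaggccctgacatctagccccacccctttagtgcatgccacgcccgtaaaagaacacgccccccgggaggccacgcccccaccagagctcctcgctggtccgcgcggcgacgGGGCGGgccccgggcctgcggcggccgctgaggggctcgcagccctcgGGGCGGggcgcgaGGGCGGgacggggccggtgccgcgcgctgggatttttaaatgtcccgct
Cdk4: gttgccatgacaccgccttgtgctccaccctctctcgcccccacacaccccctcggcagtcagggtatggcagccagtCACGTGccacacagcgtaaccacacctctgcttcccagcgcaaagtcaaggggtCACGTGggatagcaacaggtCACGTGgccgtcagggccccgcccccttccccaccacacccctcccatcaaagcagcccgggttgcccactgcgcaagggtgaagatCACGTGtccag

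The Ccne1 window holds 4 GC boxes, the Ccnd3 window 2 and the Cdk4 window 1 (left in lower case), a motif found in 32.7% of the 32851 windows of the same length in the table. Of the windows not printed, that of E2f1 holds 4 GC boxes. The second Ccnd3 window, the Cdkn1b window and the second E2f2 window hold 1 each, and the Cdk6 window and the first E2f2 window none. Cdk4 holds 4 copies of CACGTG, found at least once in 6.02% of windows, with first bases at -172, -118, -98 and -11 from the gene start. The Cdk6 window holds 1 copy, and the windows of Ccnd3 and Ccne1 hold none. The E2F letters TTTCCCGC, TTTGGCGC, TTTCGCGC and TTTGCCGC, searched on both strands, are in 1.86% of windows and in none of the 9 windows of these genes. Only these exact letters were searched. A listed start can lie inside a gene, as the E2f1 start and the second E2f2 start appear to do from their sequence. Other control regions were not searched, so these absences do not show that the genes lack such sites. Neither the AP-1 letters TGACTCA (4.46% of windows) nor the CRE letters TGACGTCA (1.55%) are in them, and the same holds for the ATF4-type letters TGATGCAAT and TGATGCAAC (0.323%). CCAAT, in 33.8% of windows, is in none of the 3 windows printed, and it is in 4 of the other 6: the second Ccnd3 window, the Cdkn1b window and both E2f2 windows. These matches describe letters in a window and are not evidence of binding.

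**Figure D2:**
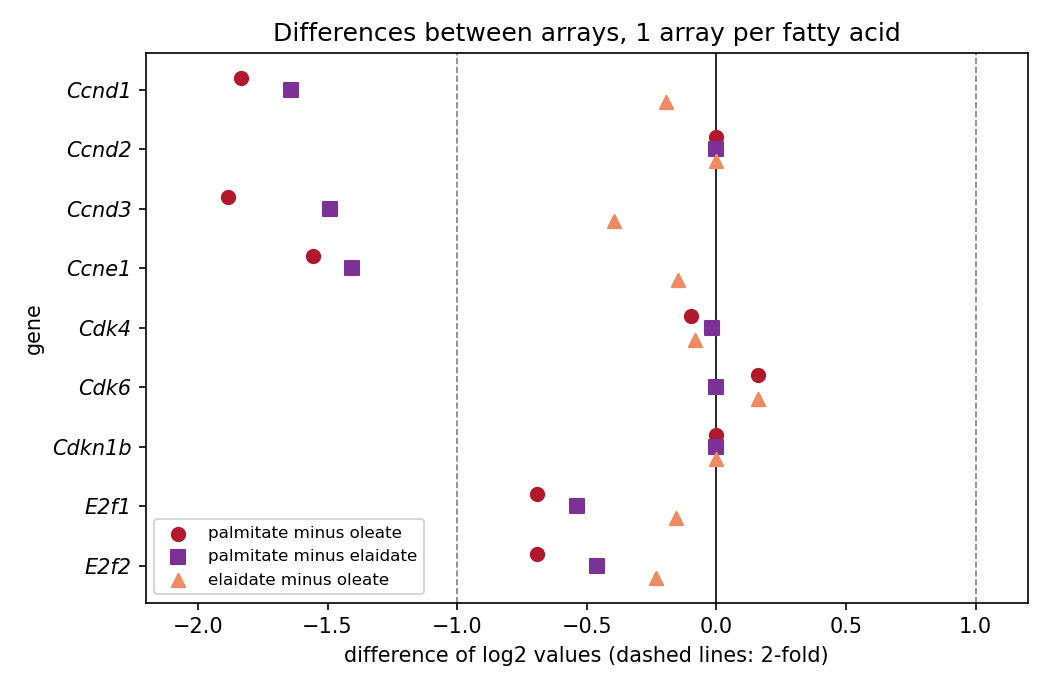
Differences of log2 values (horizontal axis) for each G1 gene in the 3 comparisons, with dashed lines at 2-fold. Ccnd1, Ccnd3 and Ccne1 lie beyond the line at -1 in both palmitate comparisons, and all elaidate minus oleate points lie between -0.39 and 0.16.

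Palmitate was set against elaidate next. These differences share the palmitate array with the ones above, so they do not add independent evidence. Ccnd1 was 3.11-fold lower on palmitate than on elaidate (-1.64), Ccnd3 2.81-fold lower (-1.49) and Ccne1 2.65-fold lower (-1.41). These 3 of 9 genes were at least 2-fold lower, beside 0.871% of all genes past the filter, and 0 of 9 were 2-fold higher, beside 0.978%. E2f1 at -0.54 and E2f2 at -0.46 were below the 1.5-fold limit here, so that the count at 1.5-fold was also 3 of 9, beside 4.43% of all genes. Cdk4 stood at -0.02, and Cdk6, Ccnd2 and Cdkn1b were equal on both arrays.

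The isomers, which differ only in the geometry of their double bond, gave small differences. None of the 9 genes was 2-fold different between elaidate and oleate, beside 0.106% of all genes higher and 0% lower. Ccnd3 at -0.39, E2f2 at -0.23 and Ccnd1 at -0.19 were the furthest from 0, followed by Cdk6 on the other side at 0.16. E2f1 and Ccne1 stood at -0.15 each and Cdk4 at -0.08. With 1 array each, no interval can be put on these differences, and a small value does not show that the isomers act alike. The elaidate array held the middle value for each of the 6 genes with 3 different values, in the order palmitate below elaidate below oleate. That order was found for 30.8% of the 4186 genes past the filter with 3 different values. The share includes genes higher on palmitate than on oleate, whereas the 6 G1 genes were all lower, so it is not a like comparison. For Cdk4 the palmitate and elaidate values differed by only -0.02.

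**Figure D3:**
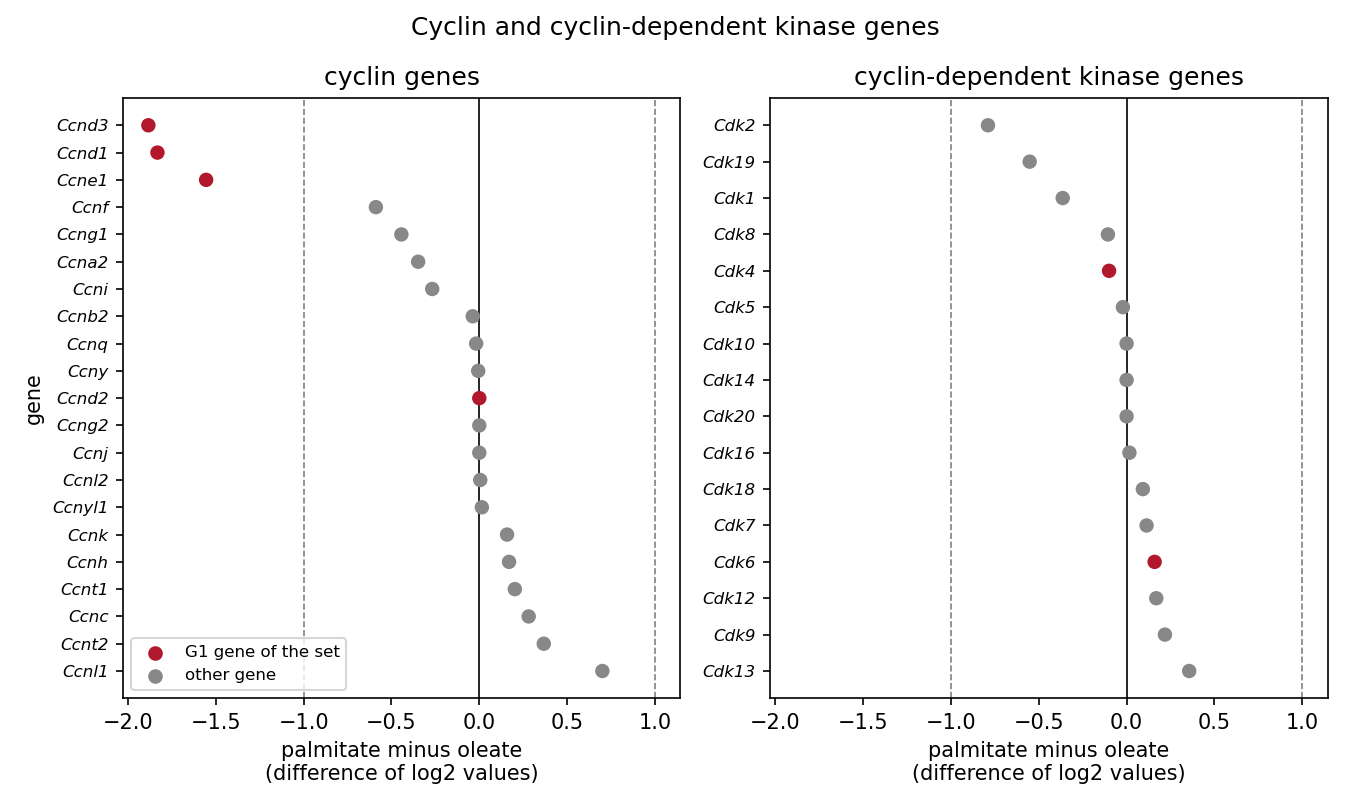
Palmitate minus oleate (horizontal axis, difference of log2 values) for cyclin and cyclin-dependent kinase genes past the filter, ordered from the lowest, with the G1 genes described here in red. Only genes with a probe set naming no other gene are shown, so Ccne2 is absent. Ccnd3, Ccnd1 and Ccne1 are the 3 lowest of these 21 cyclin genes and the only ones beyond the dashed 2-fold line at -1.

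Set among their families, Ccnd3, Ccnd1 and Ccne1 had larger differences than the other cyclins, which is described and not tested. All cyclin and numbered Cdk genes with a probe set naming no other gene were gathered by symbol after the values of the G1 genes had been seen. The probe set shared by Ints8 and Ccne2, at -1.65 and so below Ccne1, is not among them. Averaging in the probe set shared with LTO1 would put Ccnd1 at -0.92, inside the 2-fold limit. Of 21 cyclin genes past the filter, the next lowest after Ccne1 in palmitate minus oleate was Ccnf, a ubiquitin ligase subunit, at -0.59. Ccng1, a p53 target, stood at -0.44, and Ccna2, the cyclin of S phase and G2, at -0.35. The mitotic cyclin gene Ccnb2 stood at -0.04. The highest were cyclins of transcription and splicing, Ccnl1 at 0.70 and Ccnt2 at 0.37. Of 16 Cdk genes past the filter none was 2-fold different in palmitate minus oleate, beside 1.22% of all genes lower and 1.65% higher. That count is near the share over all genes. The lowest was Cdk2, the partner of cyclin E, with 7.82 with palmitate, 8.64 with elaidate and 8.61 with oleate, a difference from oleate of -0.79.

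Regulators one step away were then described list by list. Over all genes past the filter the median log2 difference was 0 in each comparison, with 36.8% of genes lower and 30.9% higher on palmitate than on oleate. The median over the 9 G1 genes was -0.69 for palmitate against oleate, -0.46 for palmitate against elaidate and -0.15 for elaidate against oleate.

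Among the other E2F and DP factors, 6 of 8 were lower on palmitate than on oleate, 2 were equal and the median was -0.16. E2f8, a repressive E2F that is itself an E2F target, was the one past 2-fold, with 6.44 with palmitate, 7.83 with elaidate and 7.97 with oleate (-1.53 relative to oleate and -1.39 relative to elaidate). Of all genes, 1.22% were at least 2-fold lower on palmitate than on oleate and 0.871% than on elaidate. E2f7, a relative of E2f8, stood at -0.53 and Tfdp1, which pairs with E2F proteins to bind DNA, at -0.55. E2f4, a repressor in resting cells, stood at -0.12, and E2f3 and E2f5 were equal on palmitate and oleate. In the retinoblastoma family and its DREAM complex partners, 4 of 8 were lower, and 2 were higher. The 2 others were equal, and the median was -0.10. Mybl2, an E2F target that takes over DREAM subunits in S phase, stood at -0.73 and Rbl2, which encodes the retinoblastoma relative p130, at -0.43. Rb1 itself stood at -0.31.

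Of the other CDK inhibitors, 5 of 7 measured genes passed the filter, 3 of them lower and 2 higher, with a median of -0.41. Cdkn2c, which encodes the CDK4 and CDK6 inhibitor p18, was past 2-fold lower, with 4.78 on the palmitate array and 5.83 on both the elaidate and the oleate array (-1.04). It was the only inhibitor gene past 2-fold lower, beside 1.22% of all genes against oleate and 0.871% against elaidate. Cdkn2d, the gene of the related inhibitor p19, stood at -0.54. Cdkn1a, which encodes the p53-induced inhibitor p21, stood at 0.12, and Cdkn1c at 0.44. No inhibitor gene past the filter was 2-fold higher on palmitate than on oleate, beside 1.65% of all genes. With so few genes, that count is no result particular to the inhibitors. Other G1 kinases and activators went both ways, with 6 of 10 lower, 4 higher and a median of -0.06. Cdk2 was furthest from 0, followed by Cdc25a, the phosphatase that activates CDK2, at -0.60. Mnat1, of the CDK-activating kinase, was higher at 0.53. The genes of G1 protein turnover differed little, with a median of 0 over 10 genes. Their furthest members were Gsk3b, a kinase that marks cyclin D1 for export and degradation, at 0.57 and Fbxo31, a ubiquitin ligase subunit for cyclin D1, at -0.13.

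**Figure D4:**
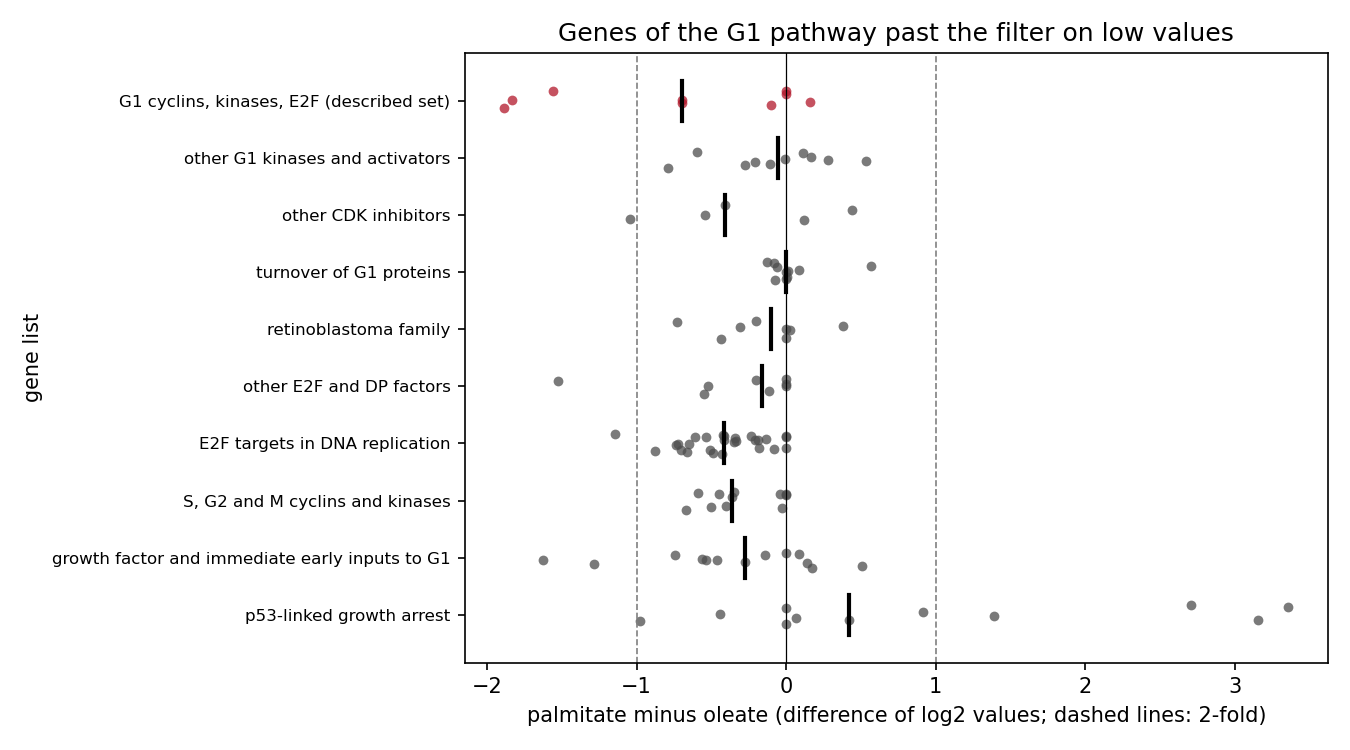
Palmitate minus oleate (horizontal axis, difference of log2 values) for each gene past the filter in the G1 set and 9 further lists, with a black bar at each list's median and vertical jitter for legibility only. The replication list lies at or below 0 with a median of -0.41, and the growth arrest list reaches 3.36.

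Genes downstream of E2F were lower on the palmitate array in most cases, each by less than Ccne1. Of 27 measured E2F targets in DNA replication, 24 were lower on palmitate than on oleate, 3 were equal and none was higher, with a median of -0.41. Over all genes past the filter 36.8% were lower, 32.3% equal and 30.9% higher in that comparison. Rrm2, the ribonucleotide reductase subunit made in S phase, was the one past 2-fold (-1.14), with 8.41 with palmitate, 9.60 with elaidate and 9.55 with oleate. At least 2-fold lower on palmitate than on oleate were 1.22% of all genes. The thymidine kinase gene Tk1 stood at -0.88, and Mcm6, of the replicative helicase, at -0.71. Between elaidate and oleate the same list had 15 genes lower, and 6 each were higher or equal. The median was -0.03, and over all genes past the filter 24.3% were lower, 31.5% higher and 44.1% equal in that comparison. Of 11 cyclins and kinases of S, G2 and M phase, 9 were lower on palmitate than on oleate and 2 were equal. Over all genes 36.8% were lower and 32.3% equal. The median of the 11 was -0.36, and none of them was past 2-fold, beside 1.22% of all genes lower and 1.65% higher. Aurkb, a mitotic kinase, at -0.67 and Ccnf were the furthest from 0.

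Upstream of the D cyclins, 8 of 13 growth factor and immediate early genes past the filter were lower on palmitate than on oleate, 4 were higher and 1 was equal. Over all genes past the filter 36.8% were lower and 30.9% higher. The median of the 13 genes was -0.28, and it was -0.07 over all measured genes of the list without the filter. Between elaidate and oleate, 11 of the 13 were lower, 1 was higher and 1 equal, with a median of -0.14. Over all genes past the filter 24.3% were lower in that comparison. The phosphoinositide 3-kinase gene Pik3cd was past 2-fold, with 6.50 with palmitate, 7.75 with elaidate and 8.13 with oleate (-1.62). Fos, a component of AP-1, was also past 2-fold at -1.28, with 4.44 with palmitate, 5.41 with elaidate and 5.73 with oleate. Its palmitate value is close to the filter limit of 4.14. These 2 of 13 genes were at least 2-fold lower than on oleate, beside 1.22% of all genes. The other Fos and Jun family genes past the filter went both ways, with Jund at -0.56, Fosl2 at -0.54, Junb at 0.14 and Jun at 0.17. Akt1, the kinase downstream of phosphoinositide 3-kinase, stood at -0.74, the CSF1 receptor gene Csf1r at -0.46 and Myc at -0.28. Ets2 was the highest at 0.51.

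Growth arrest genes linked to p53 had 7 of 11 members higher on palmitate than on oleate, 2 lower and 2 equal, with a median of 0.42. Over all genes past the filter 30.9% were higher and 36.8% lower in that comparison. Gadd45a, a stress-induced arrest gene, stood at 3.36, Plk2 at 3.16, the stress sensor gene Sesn2 at 2.71 and Mdm2, the ubiquitin ligase of p53, at 1.39. These 4 of 11 genes were at least 2-fold higher, beside 1.65% of all genes. Several of the growth arrest genes are also induced by stress pathways other than p53. Plk2 was the one gene of all these lists past 2-fold between elaidate and oleate, at 1.41. On the palmitate array Sesn1, another p53 target, lay the other way, at -0.98 relative to oleate and past 2-fold at -1.04 relative to elaidate. Ccng1, also a p53 target, was lower too, at -0.44 relative to oleate and -0.65 relative to elaidate. Against elaidate, Gadd45a stood at 2.93, Sesn2 at 2.08, Plk2 at 1.75 and Mdm2 at 1.15. Of all genes, 0.978% were at least 2-fold higher and 0.871% at least 2-fold lower on palmitate than on elaidate. For elaidate minus oleate, 9 of the 11 genes were higher, 2 were equal and none was lower, with a median of 0.20. Over all genes past the filter 31.5% were higher in that comparison.

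The genes most like each 2-fold lower cyclin were found by the distance, over the 3 arrays, between log2 values centred on each gene's own mean, among 9110 genes past the filter. Closest to Ccne1 was E2f8, at a distance of 0.02, followed by the G protein gene Gna15 at 0.03 and the mitochondrial carnitine palmitoyltransferase gene Cpt1a at 0.04. Closest to Ccnd3 were Nbeal2 at 0.03, the myeloid adaptor gene Nfam1 at 0.09 and Dusp6, a phosphatase of ERK kinases, at 0.10. Closest to Ccnd1 were Rin2 at 0.10, Tnfaip8 at 0.12 and Dusp6 at 0.14. Dusp6 thus appears beside both D cyclins, with 7.39 with palmitate, 8.84 with elaidate and 9.15 with oleate. Ccnd3 was rank 6 from Ccnd1, and Ccnd1 was rank 6 from Ccnd3, at a distance of 0.15. With 3 arrays many genes can share a pattern, and these distances are a description.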

How the data were processed

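Total RNA was biotin-labelled (100 ng per sample) and hybridised to Affymetrix whole-transcript arrays, per the labels' protocols. The authors deposited a log2 value for each probe set. Per the submitters' processing notes these come from RMA, with no version stated, and whether another step followed is not given there. That method subtracts background, forces the arrays onto a common distribution and combines the probes, so a shift shared by most genes would be removed. Arrays have no read depth, and their number limits the precision.

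The labels name the fatty acid of each culture, which set the groups. Of 35556 probe sets, 21218 had 1 symbol in the platform annotation supplied (21185 matched a RefSeq gene by identifier), 1881 had several and 12457 were not named. Genes were named from the first kind, taking the mean over probe sets of a gene. The filter kept genes with a mean log2 value at or above the median of 4.14. With 1 array per group no test was run. Genes at least 2-fold or 1.5-fold different were counted, and lists were described by counts and medians. Named genes are all G1 genes, list members past 2-fold or otherwise the 2 furthest from 0, further list members added after their values were seen, and the 3 most similar genes of each 2-fold different cyclin, leaving out predicted, small RNA and olfactory or vomeronasal receptor genes. The G1 genes and lists were chosen with earlier results of these data known. Alternatives were other filters, array median centring, a 1.5-fold limit, one probe set per gene (that with the highest mean), and cyclic loess (limma 3.58.1, span 0.7, 3 iterations). The counting step was tested on simulated data. Python 3.11.15, pandas 2.3.3 and R 4.3.3 were used.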

Additional observations from a re-analysis of the deposited data

How the results depend on the processing

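No paired analysis was possible because each fatty acid has 1 array. With 1 array per fatty acid the error of every difference is unknown, and signal over background was not given in the deposited table. Ccnd1, Ccnd3 and Ccne1 stayed past 2-fold lower in both palmitate comparisons under array centring and cyclic loess. Palmitate minus oleate lay between -1.87 and -1.83 for Ccnd1, -1.92 and -1.88 for Ccnd3 and -1.60 and -1.55 for Ccne1. Each of these genes has 1 probe set naming no other gene, so taking the probe set with the highest mean could not change its value. Counting probe sets with several symbols too, added after seeing the data, took Ccnd1 to -0.92 against oleate and -0.82 against elaidate, and the count stayed at 3 because the probe set shared by Ints8 and Ccne2 entered it. Array centring moved the median of all genes by -0.04 for palmitate minus oleate, and Sesn1 then stood at -1.02 in place of -0.98. Without the filter the median of the other CDK inhibitors was 0 in both palmitate comparisons, in place of -0.41 against oleate and -0.45 against elaidate, and that of the growth factor and immediate early genes was -0.07 against oleate, in place of -0.28. Taking the highest probe set gave Tk1 -0.64 for palmitate minus oleate.

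The 1.5-fold limit moved counts by its construction. For palmitate minus oleate it gave 5 G1 genes in place of 3, 24 list genes in place of 9, and 875 of all genes (430 higher, 445 lower) in place of 270. For palmitate minus elaidate it gave 20 list genes in place of 9 and 716 of all genes (299 higher, 417 lower) in place of 174. For elaidate minus oleate it gave 2 list genes in place of 1 and 74 of all genes (68 higher, 6 lower) in place of 10.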
